A study of Homo sapiens with 2 samples.

Results

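UMUC3 is an established human line from a bladder carcinoma. In 2 single-cell RNA libraries of it, the cells with the highest share of transcripts from 6 genes known to respond to low oxygen were compared with the cells of lowest share, and then between the libraries. The first library came from UMUC3 with GANAB knocked down, the gene of the catalytic subunit of glucosidase II. This is the enzyme that trims glucose from new N-glycans in the endoplasmic reticulum. The second came from control UMUC3. Cells of both had been transplanted into the bladders of C57 nude mice and grown for 14 days, so the GANAB knockdown and control groups shared the line, the host and the time, and each was 1 library. The sources used here do not state how the knockdown was made, what the control carried or how many mice gave cells. With 1 library a group there was no replicate and no test, and all intervals cover counting error only.

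The members were the top 10% of cells of each library by the summed share of NDRG1, BNIP3, ADM, CA9, EGLN3 and ANKRD37 among unique molecular identifiers (UMIs), taken over barcodes with at least 15000 UMIs and at most 20% mitochondrial UMIs. They numbered 267 of 2672 GANAB knockdown cells and 438 of 4385 control cells, 705 of 7057 in all, and no barcode was shared between the member sets (4 were shared between the libraries' cells). They were set against the bottom 50% of the same library by score, called low-score cells, 1336 GANAB knockdown and 2192 control cells. The score was expressed as UMIs of the 6 genes per 1000000 UMIs of the cell, and a level as the UMIs of a gene summed over cells per 1000000 UMIs (CPM). A ratio was called higher or lower at 1.5-fold or more with a 95% exact conditional interval excluding 1, over genes with at least 10 CPM in either group. It makes no test between conditions.

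The libraries held 155064055 UMIs in the GANAB knockdown and 239857346 in the control. Some cells of the control library resembled the knockdown library in marker genes, with more UMIs of FAM133A and TMEM132D-AS1 than of MAN1A1 and CDH2. They made up 55 of 438 control members (12.6%) and 302 of 2192 low-score cells (13.8%), beside 98.1% of members and 95.8% of low-score cells in the GANAB knockdown library. Without them in the control library, 45 genes were higher and 19 lower in control members than in the low-score cells, against 43 and 20 with them. GANAB knockdown members over control members then gave 793 genes higher and 843 lower, against 732 and 774. Set against only the 55 such control members, GANAB knockdown members had 711 genes higher and 632 lower, and GANAB at a log2 ratio of -1.71. Against all control members the GANAB ratio was -1.67, so GANAB in these cells was near the level of all control members.

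Cells short of oxygen stabilise hypoxia-inducible factors (HIF), which bind short sites in DNA and raise genes for glucose uptake, glycolysis, blood vessel growth, pH control and mitophagy. Of the 6 genes, BNIP3 encodes a mitochondrial receptor for mitophagy, ADM the vasodilator peptide adrenomedullin, NDRG1 a stress-responsive cytoplasmic protein, ANKRD37 an ankyrin-repeat protein, CA9 the membrane carbonic anhydrase IX and EGLN3 a prolyl hydroxylase that marks HIF for destruction. CA9 and EGLN3 are among the genes most used to mark hypoxic tumour tissue.

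The promoters of 3 rule genes are printed here, with that of CTGF, which is described further on. BNIP3 and ADM gave most of the score, and ANKRD37 gave 3.59% of it in GANAB knockdown members and 4.09% in control members. Sequences are those of RefSeq on GRCh38.p14, 250 bases before to 50 after the gene start, 5′ to 3′ on the gene's strand. In the first 3, capitals mark the core of a HIF site, ACGTG or GCGTG on either strand, with overlapping matches joined. In CTGF (listed as CCN2) capitals mark GGAATG, the core of a site for TEAD factors, searched on both strands. BNIP3 lies at chr10:131981874-131982173 on the minus strand, ADM at chr11:10304823-10305122 on the plus strand, ANKRD37 at chr4:185396591-185396890 on the plus strand and CTGF at chr6:131951323-131951622 on the minus strand.
BNIP3: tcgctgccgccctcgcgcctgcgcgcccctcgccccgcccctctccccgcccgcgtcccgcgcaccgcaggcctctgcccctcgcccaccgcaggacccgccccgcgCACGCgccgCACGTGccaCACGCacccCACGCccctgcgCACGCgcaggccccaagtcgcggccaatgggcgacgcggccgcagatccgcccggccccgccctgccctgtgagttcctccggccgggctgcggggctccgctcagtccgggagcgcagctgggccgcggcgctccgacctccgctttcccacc
ADM: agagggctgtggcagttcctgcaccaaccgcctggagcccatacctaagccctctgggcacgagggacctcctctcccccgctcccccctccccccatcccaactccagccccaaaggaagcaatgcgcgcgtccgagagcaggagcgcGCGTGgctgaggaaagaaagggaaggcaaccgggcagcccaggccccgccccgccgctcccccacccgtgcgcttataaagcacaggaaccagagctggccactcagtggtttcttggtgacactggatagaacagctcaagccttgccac
ANKRD37: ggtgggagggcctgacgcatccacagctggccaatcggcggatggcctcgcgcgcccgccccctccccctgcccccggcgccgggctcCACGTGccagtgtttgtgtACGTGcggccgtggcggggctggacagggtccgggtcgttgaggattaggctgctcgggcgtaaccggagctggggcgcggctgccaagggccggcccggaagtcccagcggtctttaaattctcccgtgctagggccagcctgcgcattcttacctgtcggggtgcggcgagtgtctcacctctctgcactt
CTGF: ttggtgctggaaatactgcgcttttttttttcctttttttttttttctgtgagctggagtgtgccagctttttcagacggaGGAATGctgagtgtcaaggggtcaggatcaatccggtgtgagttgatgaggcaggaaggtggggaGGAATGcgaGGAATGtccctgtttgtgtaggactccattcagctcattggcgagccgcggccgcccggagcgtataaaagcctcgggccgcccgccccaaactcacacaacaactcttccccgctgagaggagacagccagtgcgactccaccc
The BNIP3 window held 6 matches to the HIF core, ADM 1, ANKRD37 3 and CA9 1, with the 2 strands of a CACGTG counted apart, and EGLN3 held 0. Of all 35116 promoters of that length, 48.4% held at least 1, so a match is common and is given as a description only. The TEAD core stood in 14.0% of all promoters and 3 times in CTGF.

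The score was a continuous range without a separate group of high cells, as the plot of its distribution shows. The cut lay at 249.6 CPM in the GANAB knockdown library and at 233.4 in the control library. In the GANAB knockdown library the 3 members nearest the cut scored 249.6 to 249.8 and the 3 cells nearest below it 248.8 to 249.6. In the control library the 3 nearest members scored 233.4 to 233.6 and the 3 nearest other cells 232.5 to 233.2. Within 10 CPM of the cut lay 42 members and 55 other cells of the GANAB knockdown library and 83 members and 74 other cells of the control library. Members had a median score of 284.9 in the GANAB knockdown library against 89.6 in its low-score cells, and of 271.0 in the control library against 91.2. At or above the control cut were 348 of 2672 GANAB knockdown cells, 13.0% (Clopper-Pearson 95% interval 11.8 to 14.4), against 10% of control cells by construction. With BNIP3 left out of the score the share was 7.19%, below 10%. On thinned cells it was 19.6%, but thinned scores are whole UMI counts and every knockdown cell tied at the cut was counted. Ties among control cells were instead broken to keep 10%, so the 19.6% cannot be set against 10% or 13.0%.

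**Figure D1:**
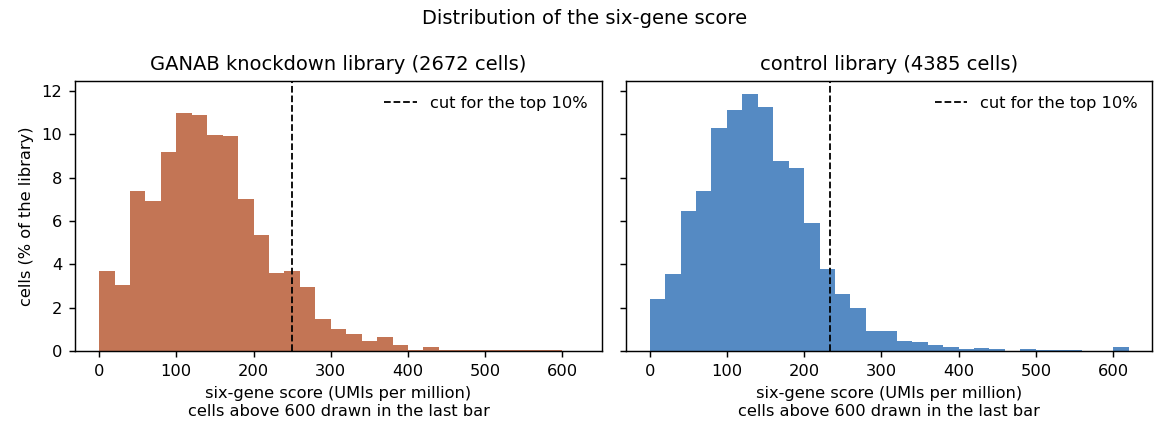
Share of cells (y axis, percent of the library) by six-gene score (x axis, CPM) in the GANAB knockdown (left) and control (right) libraries, with the cut for the top 10% dashed at 249.6 and 233.4. Both distributions have 1 broad peak and the cut lies on its falling side.

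BNIP3 made up most of the score. In members it gave 73.1% of the 6 genes' UMIs in the GANAB knockdown library and 63.4% in the control library, and ADM gave 18.6% and 24.4%. BNIP3 (ENSG00000176171) stood at 222 CPM in GANAB knockdown members (95% Poisson interval 215 to 230) against 75.6 in the low-score cells, and at 191 in control members (186 to 197) against 74.8 in the low-score cells. A member held a median of 9 BNIP3 UMIs and a low-score cell 3, in either library. ADM (ENSG00000148926) stood at 56.6 CPM in GANAB knockdown members against 3.96 in the low-score cells, and at 73.8 in control members against 4.96.

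The other 4 rule genes were scarce. NDRG1 (ENSG00000104419) was at 13.7 CPM in GANAB knockdown members against 5.65 in the low-score cells, and at 24.3 in control members against 7.64. ANKRD37 (ENSG00000186352) was at 10.9 against 3.22 in the GANAB knockdown library and at 12.3 against 2.78 in the control library. CA9 (ENSG00000107159) had 6 UMIs in all GANAB knockdown members and 1 in all control members. EGLN3 (ENSG00000129521) had 0 UMIs in GANAB knockdown members, which at a limit of 3 counts allows up to 0.217 CPM, and 1 in control members. CA9 and EGLN3 were thus close to absent from the cells that the rule selected. They were as scarce over all cells, with CA9 at 28 UMIs in the GANAB knockdown and 15 in the control library, and EGLN3 at 8 and 5. Barcodes of at most 100 UMIs, which hold mostly free RNA, had BNIP3 at 109 CPM in either library and ADM at 16.7 in the GANAB knockdown and 21.0 in the control library. Those levels lie above the low-score cells' and below the members'. These levels chose the members and are a description.

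Measured in UMIs that had not chosen the cells, the excess of BNIP3 was much smaller. Each cell's UMIs were split at random into 2 equal sets, the top 10% were chosen on one set and the levels were read from the other, a check added after the data had been seen. BNIP3 was then at 158 CPM in the chosen GANAB knockdown cells against 108 in the low-score cells, 1.46-fold, and at 127 in the chosen control cells against 104, 1.22-fold. For the members themselves, chosen and read on all UMIs, the BNIP3 ratios were 2.94 and 2.56. The choice on one set rested on fewer UMIs per cell and was noisier. The part of this in the smaller ratios was not tested. ADM kept a large difference in the unused UMIs, at 44.4 against 6.07 CPM in the GANAB knockdown library (7.30-fold) and 54.0 against 8.79 in the control library (6.14-fold). NDRG1 was 1.42-fold and ANKRD37 1.75-fold higher in GANAB knockdown cells so chosen, and 1.495-fold and 2.24-fold in control cells.

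The spread over cells showed the same contrast between the 2 main genes. After every cell had been thinned to 15000 UMIs, the variance of BNIP3 over cells was 1.23 times its mean in the GANAB knockdown library and 1.07 times in the control library, where counting alone gives 1. For ADM it was 2.27 and 2.43 times the mean, for ANKRD37 1.73 and 1.43, and for NDRG1 1.18 and 1.27. ADM had a UMI in 10.8% of thinned GANAB knockdown cells and 15.1% of thinned control cells.

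Each of the 4 rule genes with enough UMIs showed little tendency to be high in the cells chosen by the other 5. When a gene was left out and the cells were chosen by the other 5, the level of the gene left out was close in the cells chosen and in the low-score cells, with the interval above 0 for ADM in the control library, as the plot of the rule genes shows. BNIP3 had a log2 ratio of -0.02 in the GANAB knockdown library (95% interval -0.10 to 0.06) and of -0.0017 in the control library (-0.07 to 0.06). ADM had -0.23 (-0.50 to 0.03) in the GANAB knockdown library and 0.24 (0.07 to 0.39) in the control library. NDRG1 had -0.07 and 0.07 and ANKRD37 -0.27 and 0.01, all with intervals that include 0. CA9 and EGLN3 had too few UMIs to tell. With NDRG1, ADM or ANKRD37 left out, BNIP3 made up most of the remaining score, so whether those genes were high together was not tested. Without BNIP3 in the score, 40.1% of GANAB knockdown members and 48.9% of control members were still members. Without ADM the shares were 75.7% and 65.3%.

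**Figure D2:**
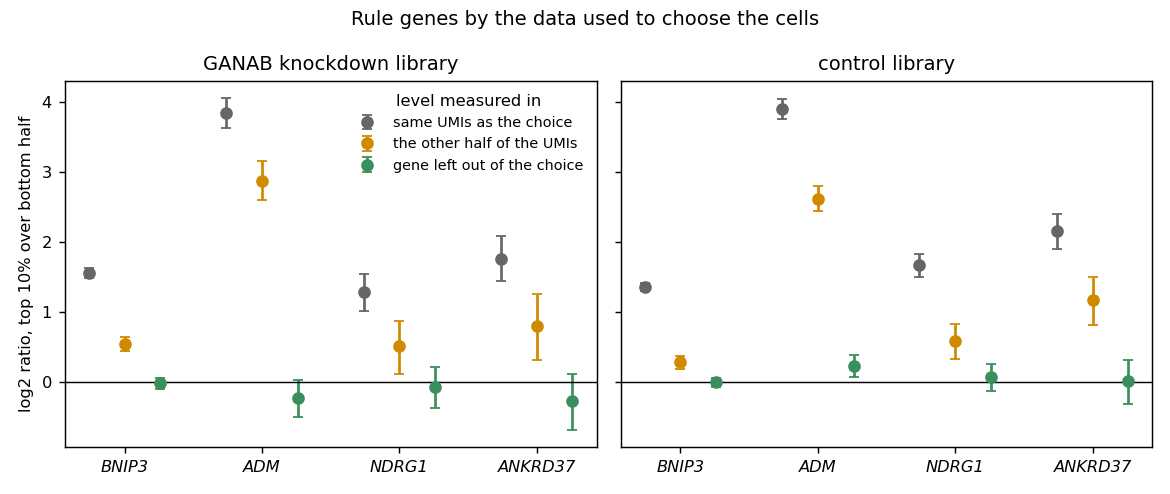
Log2 ratio of the top 10% over the low-score cells (y axis; error bars are exact 95% intervals of counting error) for 4 rule genes in the GANAB knockdown (left) and control (right) libraries, read from the UMIs that chose the cells, from the unused set of UMIs, and with the gene left out of the choice. For ADM the unused set keeps 2.87 in the knockdown and 2.62 in the control library, while with each gene left out the ratios lie between -0.27 and 0.24.

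Few other genes known to respond to HIF differed by 1.5-fold between members and low-score cells, though most of the lists lay slightly above 0. The label of hypoxia-high cells was thus only weakly matched by genes outside the rule, and the cells are called members here. VEGFA, the main vessel growth factor under HIF control, stood at 16.3 CPM in GANAB knockdown members against 15.6 in the low-score cells, and at 20.5 in control members against 21.8. SLC2A1, the glucose transporter GLUT1, was at 16.6 against 16.2 in the GANAB knockdown library and at 24.96 against 19.1 in the control library. BNIP3L, the close relative of BNIP3, was at 58.9 against 58.6 and at 69.6 against 64.1. EGLN1, another HIF prolyl hydroxylase and itself a HIF target, was at 17.99 against 16.8 and at 22.6 against 19.8. For each of these 4 the ratio stayed under 1.5 in both libraries.

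Across the lists of the pathway few genes were called. In all measured genes, 99 were higher in GANAB knockdown members than in the low-score cells (1.3%) and 29 lower (0.38%) of 7641, with a median log2 ratio of 0.05. In the control library 43 were higher (0.568%) and 20 lower (0.264%) of 7577, with a median of 0.03. Centred on that median, the GANAB knockdown counts were 78 higher and 48 lower. Of the glucose uptake and glycolysis list 0 of 16 measured genes were called in the GANAB knockdown library and 0 of 14 in the control library, with medians of 0.20 and 0.16 and with 14 and 11 of them above 0. Within it LDHA, which makes lactate from pyruvate, was at 264 CPM in GANAB knockdown members against 191 in the low-score cells and at 502 in control members against 416. PGK1, a glycolytic kinase, was at 152 against 135 and at 199 against 172. Of a pan-tumour hypoxia signature 0 of 41 measured genes were called in either library, with medians of 0.19 and 0.18 and with 34 and 33 above 0. At the shares called among all genes, a count of 0 in lists of this length is near the background. Summed over the list, the signature stood at 7445, 7660 and 5460 CPM in the first, second and lowest deciles of the score in the GANAB knockdown library, and at 9748, 10163 and 7627 in the control library. The glycolysis sums were 7143, 7551 and 5828 CPM, and 10130, 10218 and 8740. Both sums were thus lowest of the 3 in the lowest decile.

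Of the lists of the pathway, secreted HIF targets had the most calls in the control library. In the GANAB knockdown library they had no more than the collagen-modifying enzymes. Of 5 measured secreted targets, 1 was higher in GANAB knockdown members and 3 in control members, with medians of 0.39 and 0.89. ANGPTL4, a lipase inhibitor, was at 22.1 CPM in GANAB knockdown members against 15.5 in the low-score cells (log2 0.52), under the size rule, and at 18.5 in control members against 9.79 (0.92). STC1, the secreted protein stanniocalcin 1, was at 11.2 against 8.58 (0.39) and at 31.4 against 16.9 (0.89). Of HIF subunits and oxygen sensing genes 0 of 7 were called in the GANAB knockdown library and 1 of 7 in the control library, CITED2, a HIF-induced antagonist of HIF, at 23.5 against 15.1 CPM. HIF1A, the main alpha subunit, was at 42.1 against 43.7 and at 44.5 against 45.4. Of collagen-modifying enzymes 1 of 7 was called, PLOD2, a lysyl hydroxylase, at 66.8 CPM in GANAB knockdown members against 42.8 in the low-score cells; in the control library it was at 148 against 110 and under the rule.

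The remaining lists of the pathway held no call in either library. These were the HIF-induced repressors and demethylases (medians -0.02 in the GANAB knockdown and -0.10 in the control library), the mitophagy and cell survival targets without BNIP3 (0.07 and 0.12), pH and bicarbonate (0.29 and 0.22), glycogen (0.05 and 0.01) and the respiratory chain switch (-0.03 and 0.01). DDIT4, an inhibitor of mTOR raised by low oxygen and other stress, was at 125 CPM in GANAB knockdown members against 138 in the low-score cells and at 167 in control members against 153.

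**Figure D3:**
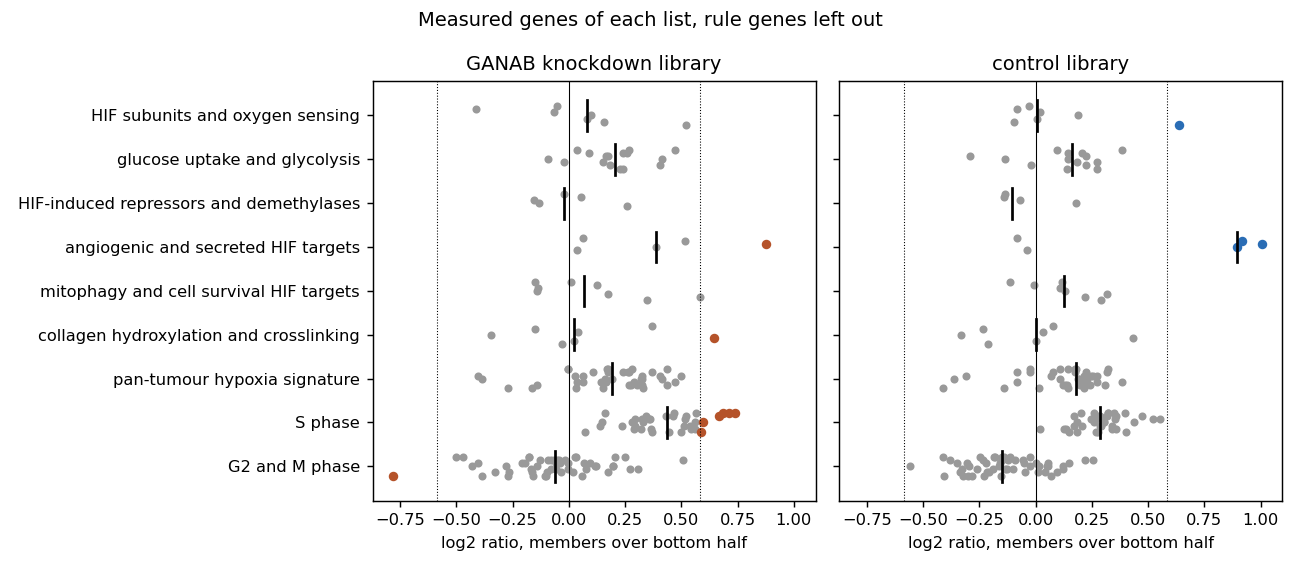
Log2 ratio of members over the low-score cells (x axis) for each measured gene of 9 lists (y axis) in the GANAB knockdown (left) and control (right) libraries; black bars are list medians, dotted lines 1.5-fold, and coloured points the genes called. Glycolysis and the pan-tumour signature have 0 coloured points, and S phase genes lie right of 0 in both panels.

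Members overlapped in part with the cells richest in other hypoxia genes. Of the 267 GANAB knockdown members 26 were also in the top 10% by VEGFA (9.74%), and of 438 control members 39 were (8.90%), beside the 10% of cells that each set holds by construction. For SLC2A1 the overlap was 11.985% and 13.2% (95% Clopper-Pearson intervals 8.34 to 16.5 and 10.2 to 16.8), and for the glycolysis list 9.36% and 13.9% (6.15 to 13.5 and 10.8 to 17.5). LDHA gave 13.9% and 14.8% (9.95 to 18.6 and 11.6 to 18.5), PGK1 13.9% and 14.2%, HIF subunits 12.4% and 14.4%, and the pan-tumour signature 8.99% and 13.7% (5.84 to 13.1 and 10.6 to 17.3). The intervals of these 6 all lay above 10% in the control library and all included it in the GANAB knockdown library. This did not hold for all genes and lists scored. In the control library VEGFA, HILPDA and the repressor, mitophagy, collagen, pH, glycogen and respiratory chain lists had intervals that included 10%. In the GANAB knockdown library the interval of pH and bicarbonate lay above it (10.9 to 19.8). For the secreted HIF targets the overlap was 17.2% and 16.9%. Scored in the same way, CTGF gave 13.5% and 15.5% (9.63 to 18.2 and 12.3 to 19.3). MYC gave 13.9% and 17.4% (9.95 to 18.6 and 13.9 to 21.2). Overlaps of this size were thus not particular to the hypoxia lists. Each pair of sets was of equal size, so the share is the same of either set.

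Beside the 4 rule genes, 19 genes were higher in members of both libraries, and 2 were lower. With the rule genes the 23 shared genes were 23.2% of those higher in the GANAB knockdown and 53.5% of those higher in the control library. Of these, 6 had at least 50 CPM in members of both, among them CTGF, PLK2, SFTA1P, FOXD1 and CXCL3. CTGF, a matrix-associated growth factor and a known target of the YAP and TEAD regulators, was at 135 CPM in GANAB knockdown members against 68.6 in the low-score cells (log2 0.97, 0.89 to 1.05) and at 201 in control members against 102 (0.97, 0.92 to 1.02). PLK2, a stress-induced polo-like kinase, was at 68.9 against 36.2 and at 51.0 against 26.8. FOXD1, a forkhead transcription factor, was at 80.4 against 38.3 and at 86.4 against 53.6. SFTA1P, a long noncoding RNA, was at 70.3 against 35.4 and at 101 against 60.5. CXCL3, a chemokine that draws neutrophils, was at 209 against 128 and at 73.9 against 46.3. For CTGF, PLK2 and CXCL3 the intervals of the 2 libraries' ratios overlapped. FOXD1 had a log2 ratio of 1.07 (0.97 to 1.17) in the GANAB knockdown and 0.69 (0.61 to 0.77) in the control library, and SFTA1P 0.99 (0.88 to 1.10) and 0.75 (0.67 to 0.82).

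The other 13 were lower in level and are named to spell out the count, after their values had been seen. They included HBEGF, a ligand of the epidermal growth factor receptor, at 56.1 CPM against 26.1 in the GANAB knockdown library and 37.4 against 18.4 in the control library. SGK1, a kinase that controls ion transport, was at 22.2 against 9.78 and at 24.4 against 10.5. BCL2A1, a survival factor of the BCL2 family, was at 41.8 against 18.4 and at 74.7 against 45.8. DKK1, a secreted inhibitor of Wnt signals, was at 19.8 against 12.7 and at 15.6 against 4.002. The rest were VSTM1, AC090409.1, TFRC, LINC00707, ARHGAP22, NAV3, STEAP1, BATF3 and NRIP3. The 2 lower in both were TGFBI, a secreted matrix protein, and MXD3, a partner of MAX. Of 13 promoters found among the 19 genes, 7 held a HIF core, 2 a TEAD core and 0 the AP-1 site TGANTCA, against 48.4%, 14.0% and 7.71% of all promoters.

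The count of these genes fell without ADM in the score. Chosen without ADM, the top 10% had 6 genes higher in both libraries, against 23 with all 6 rule genes (rule genes counted). CTGF was then at a log2 ratio of -0.20 in the GANAB knockdown and 0.28 in the control library and CXCL3 at -0.00155 and 0.70. PLK2 was at 0.38 and 0.61, SFTA1P at 0.53 and 0.57 and FOXD1 at 0.56 and 0.51, most of them just under 1.5-fold. With members chosen on one set of UMIs and read in the other, 8 genes were higher in both.

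Members were also somewhat deeper and more often in S phase than low-score cells. They had a median of 43392 UMIs in the GANAB knockdown library against 36846 in the low-score cells, and of 46375 in the control library against 40346. Their median mitochondrial share was 1.07% against 0.841% and 1.58% against 1.41%. Scored on thinned counts, 20.6% of GANAB knockdown members were in S phase against 9.66% of low-score cells (Clopper-Pearson intervals 15.9 to 25.95 and 8.12 to 11.4), and 32.6% of control members against 19.9% (28.3 to 37.3 and 18.3 to 21.7). The G2 and M share was alike, 12.7% against 14.3% and 21.9% against 22.0%. Of the S phase list 6 of 36 measured genes were higher in GANAB knockdown members (median 0.44) and 0 of 37 in control members (0.29), and all lay above 0 in either library. The 6 were MCM5, FEN1, GINS2, UHRF1, WDR76 and CDC45, which act in replication or its chromatin. Of G2 and M genes 1 was called, TOP2A, the mitotic topoisomerase, at 99.7 CPM in GANAB knockdown members against 172 in the low-score cells.

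Few growth genes were called. Of the MYC and nucleolus list 2 of 16 were higher in GANAB knockdown members, NOLC1, a nucleolar protein, and ODC1, the first enzyme of polyamine synthesis, with a median of 0.40. In control members 1 of 16 was, MYC itself, at 239 CPM against 144, with a median of 0.24. Much of the depth and cycling difference sat at the low end of the score. In the lowest decile of GANAB knockdown cells the median cell had 26745.5 UMIs, MALAT1, a nuclear noncoding RNA, stood at 14992 CPM and the S phase sum at 893 CPM, beside 8256 and 1646 in members. In the lowest control decile they were 31595 UMIs, 9899 and 1435 CPM, beside 5895 and 2338 in members. The second decile of GANAB knockdown cells had a median of 47439 UMIs and an S phase sum of 1621 CPM. The second control decile had 51907 UMIs and 2561 CPM, so neither trait was particular to members. Taking all other cells in place of low-score cells left 35 genes higher in GANAB knockdown members and 19 in control members. Among G1 cells alone 92 genes were higher in GANAB knockdown members and 84 in control members, 21 of them in both.

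Markers of other cell types were low in members. The summed fibroblast markers were at 8.82 CPM in GANAB knockdown members against 12.1 in the low-score cells and at 6.83 in control members against 19.2, with DCN and LUM at 0 in all 4 groups. Endothelial markers summed to 4.99 against 4.31 and 1.22 against 0.910, and macrophage markers to 31.4 against 23.0 and 30.0 against 23.8. The T and NK cell sum of 238 CPM in GANAB knockdown members against 280 was CCL5, with CD3E, CD2 and NKG7 at 0. The neutrophil sum of 19.9 against 70.6 and 144 against 112 was mostly G0S2, with CSF3R, CXCR2 and MPO at 0. UMUC3 markers summed to 29662 CPM in GANAB knockdown members and 22952 in control members. Of 10 such markers 1 was at 0, KRT19 in GANAB knockdown members. The sources used here do not state whether mouse reads were set apart, and the part of other cells in the results was not tested.

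Members fell into cells led by BNIP3 and cells led by ADM, judged by the rule gene with most UMIs in the cell. In the GANAB knockdown library ADM led in 34 members and BNIP3 in 230, and in the control library ADM led in 69 and BNIP3 in 350. ANKRD37 led in 2 and 9, and NDRG1 in 1 and 10. This division was made after values had been seen. ADM-led over BNIP3-led members gave 381 genes higher (4.88%) and 616 lower (7.89%) of 7808 in the GANAB knockdown library, and 157 higher (2.05%) and 79 lower (1.03%) of 7666 in the control library. Without the control cells that resembled the knockdown library these control counts were 173 and 98. In both libraries 59 genes were higher, ADM among them, and 14 lower, with 2 in opposite directions. The 59 were 15.5% of the genes higher in the GANAB knockdown and 37.6% of those higher in the control library. Groups of 34 and 69 cells leave single cells much weight.

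Among the fixed lists, immediate early genes had 5 of 16 higher and KLF4 lower in ADM-led members of the GANAB knockdown library, and 5 of 15 higher and NR4A2 lower in the control library. Heat shock genes had 6 of 12 higher and 1 of 12 higher. The genes ranked highest in ADM-led members of both libraries follow. CTGF was at 450 CPM in ADM-led against 75.3 in BNIP3-led members of the GANAB knockdown library, and at 447 against 146 in the control library. It had a UMI in 24 of 34 and in 54 of 69 ADM-led cells, but 1 cell gave 26.9% and 44.2% of those UMIs. CYR61, a relative of CTGF and likewise a YAP target, was at 942 against 425 and at 898 against 481. GADD45A and GADD45B, stress-induced regulators of growth arrest, were at 396 against 114 and 288 against 107 in the GANAB knockdown library, and at 233 against 131 and 165 against 59.6 in the control library. EREG, another ligand of the epidermal growth factor receptor, was at 151 against 45.2 and at 126 against 50.7. HSPA6, a strictly inducible heat shock protein, was at 160 against 53.9 and at 82.1 against 33.8. Others so ranked were VSTM1, CXCL1, PLK2, EGR1, HIST1H1D and CXCL3. Single cells also carried much of these levels. In the control library 1 cell gave 29.9% of the CYR61 UMIs in ADM-led members, and for PLK2 26.9% and CXCL3 26.2%. HSPA6 had a UMI in 22 of 69 ADM-led control cells, and 1 cell gave 25.5%. In the GANAB knockdown library 1 cell gave 37.4% of the EREG UMIs. Ratios without such cells were not taken. With a lead of at least 2 times VSTM1 was lower in the control library, at -0.20. In the control library EGR1 drew 51.5% of its UMIs in ADM-led cells from 1 cell and was lower, at a log2 ratio of -0.24, without control cells that resembled the knockdown library.

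**Figure D4:**
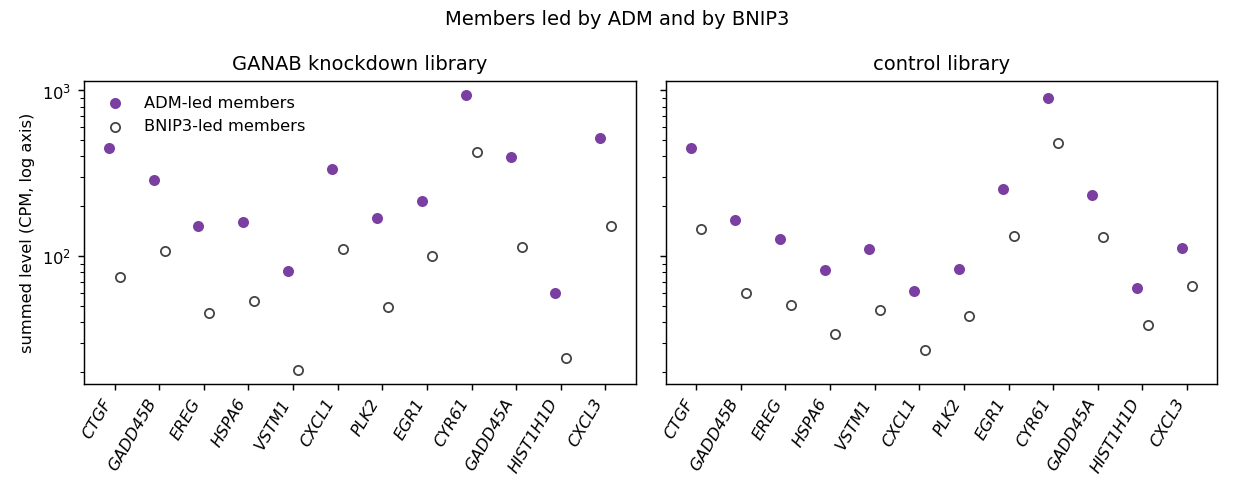
Summed level (y axis, CPM, log axis) of 12 genes higher in ADM-led members of both libraries, in members led by ADM (filled) and by BNIP3 (open), for the GANAB knockdown (left) and control (right) libraries. CTGF lies at 450 and 447 in ADM-led members, against 75.3 and 146 in BNIP3-led members.

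The G2 and M share was higher in ADM-led than in BNIP3-led members, on few cells and with no interval taken. The S phase share was alike in the GANAB knockdown library and lower in ADM-led members of the control library. S phase held 20.6% of ADM-led and 20.4% of BNIP3-led GANAB knockdown members, and 24.6% and 35.7% of control members. In the GANAB knockdown library 8 of 34 ADM-led members were in G2 or M phase, against 26 of 230 BNIP3-led members. In the control library 23 of 69 were, against 70 of 350. Of the G2 and M list 20 of 52 genes were higher in ADM-led members of the GANAB knockdown library (median 0.35) and 4 of 53 in the control library (0.24). The part of phase in the other differences was not tested, beyond G1 cells alone, which gave 695 genes higher in the GANAB knockdown and 244 in the control library.

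Other lists had more calls between ADM-led and BNIP3-led members in the GANAB knockdown library than in the control library. Of 19 measured type I interferon response genes 18 were lower in ADM-led GANAB knockdown members, with a median of -1.39, and in the control library 0 of 8 were called (-0.20). IFIT1, an antiviral RNA-binding protein, was at 19.8 against 96.7 CPM in the GANAB knockdown library and at 6.36 against 6.98 in the control library. Cell by cell, the interferon sum had a median of 920 CPM in ADM-led and 1515 in BNIP3-led GANAB knockdown members, with ranges that overlapped (316 to 14329 and 111 to 48595). Of 12 NF-kB targets and chemokines 10 were higher and 1 lower in ADM-led GANAB knockdown members (median 1.40), and 3 of 10 were higher in the control library (0.24). CXCL8, a neutrophil chemokine, was at 535 against 71.5 and at 29.1 against 36.1. The mesenchymal list had 8 of 13 lower and 2 higher in the GANAB knockdown library (-0.61) and 1 of 10 lower in the control library (-0.10). Glycolysis was level in both, with medians of -0.10 and -0.07. The difference between the libraries was not tested.

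The few control members led by ANKRD37 had several hypoxia genes high. They were 9 cells, chosen for a look after values had been seen. Against the control low-score cells 401 genes were higher (5.04%) and 509 lower (6.4%) of 7952. VEGFA was at 138 CPM against 21.8, SLC2A1 at 96.2 against 19.1, HILPDA, a lipid droplet protein, at 93.2 against 27.2 and DDIT4 at 1521 against 153. All 4 measured HIF-induced repressors and demethylases were higher, and 3 of 6 secreted HIF targets. Of 15 glycolysis genes 3 were higher and 1 lower, and of the 42 genes of the pan-tumour signature 6 were higher and 7 lower (median -0.15). Single cells carried much of this. Of 46 VEGFA UMIs 21 and 16 came from 2 cells, which also held 203 and 217 of 506 DDIT4 UMIs, and the other 7 cells held 0 to 3 VEGFA UMIs each. In those 2 cells ANKRD37 had 18 and 16 UMIs, and ADM 0 and 2.

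The second comparison set GANAB knockdown members against control members. GANAB (ENSG00000089597) was at 38.5 CPM in GANAB knockdown members against 123 in control members, a log2 ratio of -1.67, and at 44.5 against 127 in the low-score cells (-1.51). PRKCSH, the beta subunit of the same enzyme, was at 44.2 against 75.8 in members (-0.78). Of 7886 genes 732 were higher (9.28%) and 774 lower (9.81%) in GANAB knockdown members, with a median of -0.03. The low-score cells gave 613 higher (7.77%) and 870 lower (11%) of 7891. Both contrasts draw on the same 2 libraries, so their values are given side by side, as in the plot of the 2 contrasts.

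Of the 4 measured rule genes 1 was past the size rule between the libraries. BNIP3 was at 222 CPM in GANAB knockdown members against 191 in control members (log2 0.22), ADM at 56.6 against 73.8 (-0.38) and ANKRD37 at 10.9 against 12.3 (-0.18), none past the rule. NDRG1 was lower, at 13.7 against 24.3 (-0.82, -1.07 to -0.58). Of 16 measured glycolysis genes 5 were higher and 3 lower in GANAB knockdown members, with a median of -0.12. LDHA was lower at 264 against 502, and ENO1, the glycolytic enolase, at 811 against 1295. SLC2A3, the glucose transporter GLUT3, was higher at 11.7 against 1.87. STC1 was lower at 11.2 against 31.4 and PLOD2 at 66.8 against 148. In the low-score cells LDHA was at 191 against 416, ENO1 at 730 against 1173, STC1 at 8.58 against 16.9 and PLOD2 at 42.8 against 110.

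Interferon genes were higher and sterol genes lower in GANAB knockdown members, and the low-score cells gave like values. All 18 measured type I interferon response genes were higher in GANAB knockdown members, with a median of 2.96, against 19 of 19 in the low-score cells (2.64). BST2, an antiviral membrane tether, was at 55.2 against 2.71 CPM and IFI27, a mitochondrial interferon-induced protein, at 92.1 against 6.40. IFIT3 was at 91.1 against 5.14, IFIT2 at 91.6 against 6.22 and IFI6 at 414 against 42.4. Of 20 cholesterol synthesis genes 19 were lower in GANAB knockdown members (median -1.03) and 18 in the low-score cells (-0.96). MSMO1, a methylsterol oxidase, was at 51.6 against 204. Of S phase genes 10 of 37 were lower between members (-0.49), against 21 of 37 between low-score cells (-0.64). Of 13 mesenchymal genes 9 were higher and 2 lower between members (median 1.04), against 8 higher and 1 lower of 14 between low-score cells (0.91).

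**Figure D5:**
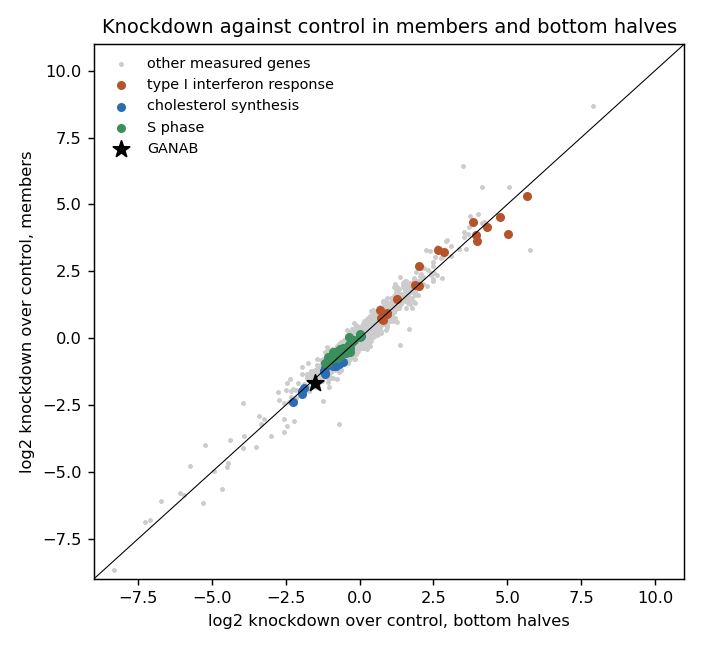
Log2 ratio of GANAB knockdown over control in members (y axis) against the same in the low-score cells (x axis) for measured genes, with 3 lists and GANAB marked; the line is equality. Interferon genes lie at the upper right with medians of 2.96 and 2.64, and sterol genes at the lower left with -1.03 and -0.96.

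The single genes ranked highest between members were CCL5, a T cell chemokine, at 238 CPM in GANAB knockdown members against 0.561 in control members, TMEM132D-AS1, an antisense noncoding RNA, at 144 against 8.13, NFATC2, a calcium-regulated transcription factor, at 59.1 against 6.03, and SPANXB1, a cancer-testis gene, at 196 against 20.1, besides 6 of the interferon genes. Those ranked lowest were MAN1A1, a Golgi mannosidase, at 1.30 against 78.2, MME, the protease neprilysin, at 10.0 against 175, VGF, a secreted neuropeptide precursor, at 31.9 against 292, and G0S2, a lipase inhibitor, at 15.3 against 144. BDKRB1, DOCK4, C15orf48, DSE and MSMO1 were also among them. TMEM132D-AS1 and MAN1A1 had also served to tell apart the control cells that resembled the knockdown library. SPANXB1 was at 141 CPM in control members of that kind and at 0.921 in the other control members. The part of this mix of cells in the ranking was not tested.

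A few genes differed between members and low-score cells more in one library than in the other, ranked by the ratio of the 2 ratios, which was not tested. Larger in the GANAB knockdown library was CXCL8, at 140 against 63.4 CPM in the GANAB knockdown and 34.4 against 27.4 in the control library. C15orf48, a small mitochondrial protein, was at 11.1 against 3.75 and at 60.2 against 58.4. COTL1, an actin-binding protein, was at 207 against 126 and at 214 against 178, and CCDC58, LYAR and BCL2A1 were ranked with these. Larger in the control library were AKAP12, a kinase scaffold, at 269 against 187 and 368 against 206, GADD45B at 134 against 118 and 78.9 against 51.5, and RGMB at 14.8 against 10.6 and 52.8 against 29.9. G0S2 was at 15.3 against 69.1 in the GANAB knockdown library and at 144 against 111 in the control library. Among GANAB knockdown low-score cells 1 cell held 512 of its G0S2 UMIs.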

How the data were processed

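The files hold UMI counts per gene and barcode from 10x 3' libraries, which the authors deposited as unfiltered matrices with no normalization. They were made with Cell Ranger 3.1.0 on GRCh38, per the submitters' processing notes, and the sources used here do not state whether the reference held mouse genes. Each matrix lists 33538 genes and 6794880 barcodes. Cells with at least 15000 UMIs and at most 20% mitochondrial UMIs were kept, and no doublet caller was run. Counts were summed over cells to CPM. Log2 ratios used a prior count of 0.5, with exact conditional binomial intervals (scipy 1.17.1), and no test was made with 1 library per group. Phases were scored with scanpy 1.11.5 on cells thinned to 15000 UMIs. The summing and calling steps were checked on simulated data. Members, lists and tests were chosen with earlier results of these data known. Named genes were the rule genes, GANAB, PRKCSH and list genes, with up to 12 per direction for members of both libraries, 10 for GANAB knockdown over control members and 8 for the ratio of ratios, all at 50 CPM or more. ADM-led against BNIP3-led members were ranked in the same way, after the data had been seen. Alternatives changed the cut, filters, cells, scaling and rule genes. A few genes that the rule names are not reported here.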

Additional observations from a re-analysis of the deposited data

Results flagged for a closer look

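SPANXB1, a cancer-testis gene, stood out because members and low-score cells differed in opposite directions in the 2 libraries. Its log2 ratio of members over low-score cells was -0.92 in the GANAB knockdown library, at 196 against 372 CPM, and 1.55 in the control library, at 20.1 against 6.87 CPM. The difference was not tested, since each group was 1 library. In control members 413 of its UMIs lay in the 55 cells that resembled the knockdown library, 182 of them in 1 cell, and 17 in the other 383 cells.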

How the results depend on the processing

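No paired analysis was possible because each group was 1 library. Counts are of genes, for members over low-score cells unless stated, and were as reported 99 higher and 29 lower (GANAB knockdown), 43 and 20 (control), and 23 higher in both. Scores on thinned cells gave 37 higher in GANAB knockdown, 18 higher and 13 lower in control and 9 in both. The share of knockdown cells at the control cut was then 19.6%, which counts all tied cells and is not comparable with the 13.0% as reported. The top 5% gave 51 lower in GANAB knockdown, 94 higher and 47 lower in control and 40 in both; the top 20% gave 60 higher in GANAB knockdown. Without cells above 2 times the median UMI count these were 54 higher in GANAB knockdown and 12 in both, with 1191 lower in GANAB knockdown over control members (774 as reported). Equal weights gave 19 and 12 lower. A 50 CPM minimum gave 28 higher and 5 lower, 15 and 1, 8 in both, and 229 and 266 between members. No minimum gave 399 and 326, 325 and 317, 67 in both, and 2063 and 1424 between members. Centring gave 48 lower in GANAB knockdown. G1 cells gave 14 lower in GANAB knockdown and 84 higher in control. Leaving out NDRG1 gave 37 lower and BNIP3 2 lower in control, with 7.19% of knockdown cells at the control cut without BNIP3. Leaving out ADM gave 31 and 28 higher, 6 in both, 14.7% at the cut, and reversed CTGF (-0.20) and CXCL3 (-0.00155) in GANAB knockdown. Leaving out ANKRD37 gave 157 higher in GANAB knockdown. All other cells as comparison gave 35 higher and 12 lower, 19 and 4, and 12 in both. Choosing on one random set of UMIs and reading the other, added after seeing the data, gave 62 higher in GANAB knockdown, 20 higher and 7 lower in control and 8 in both.

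For ADM-led over BNIP3-led members, all alternatives were added after seeing the data. A lead of at least 2 times gave 378 higher and 349 lower in control and VSTM1 at -0.20. G1 cells gave 695 higher in GANAB knockdown, 244 higher and 182 lower in control and EGR1 at -0.63, and without knockdown-like control cells EGR1 was at -0.24. The 50 CPM minimum gave 108 and 117, then 36 and 3, and no minimum gave 646 higher in GANAB knockdown and 333 and 243 in control. Rule genes with few UMIs limit every score. Over both kinds of comparison, 113 further summary values stayed within 1.5 times or their spread, 304 other values moved beyond it without a change of sign, and 606 did not. The cause of the changes was not tested.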
